A study of Mus musculus with 15 samples.

Results

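The genes described here are 10 genes of cartilage and bone differentiation: Sox9, Runx2, Sp7, Acan, Comp, Chad, Matn2, Ibsp, Bglap and Alpl. They were taken by symbol from the 51826 genes of the deposited expression tables, and each symbol matched 1 gene. The choice was made with earlier results of these data known, so counts of called genes among the 10 are descriptions. RNA-seq values were compared across 15 libraries of 13 mice, in which the study asked how mammary tumors of Trim24COE mice differ from normal gland. Trim24COE mice gave 3 carcinosarcomas (from mice 64, 567 and 897) and 3 carcinomas (from mice 89, 273_5 and 3956). They were set beside 4 control mammary glands (mice 133, 392, 417_3 and 517_3) and 3 spontaneous tumors (mice 219, FVB001 and FVB002). Trim24COE mice carry MMTV-Cre and a piggyBac transgene of FLAG-tagged mouse Trim24 behind a floxed stop cassette, in a line from 1 founder. The control glands carry MMTV-Cre alone. MMTV-Cre acts mainly in mammary epithelium, so the switch was set in epithelial cells. Spontaneous tumors carry the label carcinoma and an unknown genotype, and arose without the Trim24 transgene. All samples have the strain label FVB, whereas the design text and the study's text name FVB/129 mice as well. Ages are not in the labels; the study calls the control mice age-matched and lists tumor-bearing mice of different ages. The carcinosarcoma and carcinoma classes are the labels of the samples, and the study's 2 pathologists gave different calls for tumors 89, 567 and 3956.

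Metaplastic breast carcinomas are tumors in which part of the epithelium has taken on other forms, such as spindle cells, cartilage-like or bone-like matrix. In the skeleton, SOX9 starts the cartilage programme and turns on type II collagen and aggrecan, the proteoglycan that holds water in cartilage. RUNX2 and, after it, the zinc finger factor SP7 (osterix) drive osteoblasts, which lay down type I collagen, bone sialoprotein (Ibsp) and osteocalcin (Bglap) and use alkaline phosphatase (Alpl) to free phosphate for mineral. Several of these genes are also used outside the skeleton; Sox9, for example, is made in mammary epithelium.

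Expression was given as TPM (a transcript abundance scaled for transcript length and for the library total), so levels can be set beside each other between genes. TPM values of each library sum to the same total, which hides sequencing depth and leaves counting error unstated. From 21060 to 34209 genes lay above 0 TPM, and the first library of control gland 133 listed the most. Sequencing batch 2 holds the 3 spontaneous tumors and a repeat library each of gland 133 and tumor 3956. All other libraries are in batch 1. The RNA of the targeted gene, Trim24, was at 10.6 to 24.1 TPM in the 6 Trim24COE tumors and at 14.5 to 22.4 TPM in the 4 control glands, which overlap (limma adjusted p = 0.557). Carcinosarcomas 64, 567 and 897 had 10.6, 12.02 and 14.54 TPM, at or below the lowest gland. The 3 spontaneous tumors had 5.34 to 10.04 TPM, below the first library of every other mouse, and did not pass the test against glands (limma adjusted p = 0.263). In the same batch, the repeat libraries of gland 133 and tumor 3956 gave 11.1 and 11.49 TPM, below their first libraries (14.54 and 16.45 TPM). The labelled tissue was checked with marker lists. All 8 epithelial markers were at 1 TPM or more in each control gland, and adipocyte markers summed to between 1763 and 38048 TPM across the 4 glands. The glands thus differed widely in fat content or in fat cell RNA. In such bulk tissue, fewer cells of a type and less RNA per cell cannot be told apart. The limma package was used on log2(TPM + 1), for genes that reached 1 TPM in a number of libraries equal to the size of the smaller group. A gene was called at a Benjamini-Hochberg adjusted p under 0.05. The added 1 TPM pulls fold changes of low genes toward 0. Nothing in the labels says how far replicate mice were related, so p-values measure the spread between these samples.

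Only part of the group was expressed. Sox9 and Matn2 were at 1 TPM or more in all 13 mice, Runx2 in 12, Alpl in 10, Comp in 6, Acan in 5, and Chad and Ibsp in 2 each. Sp7 and Bglap stayed below 1 TPM in every library. Between 3 and 7 of the 10 genes reached 1 TPM in a given library. The lowest number was in spontaneous tumor FVB001, and the highest in carcinoma 89.

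**Figure D1:**
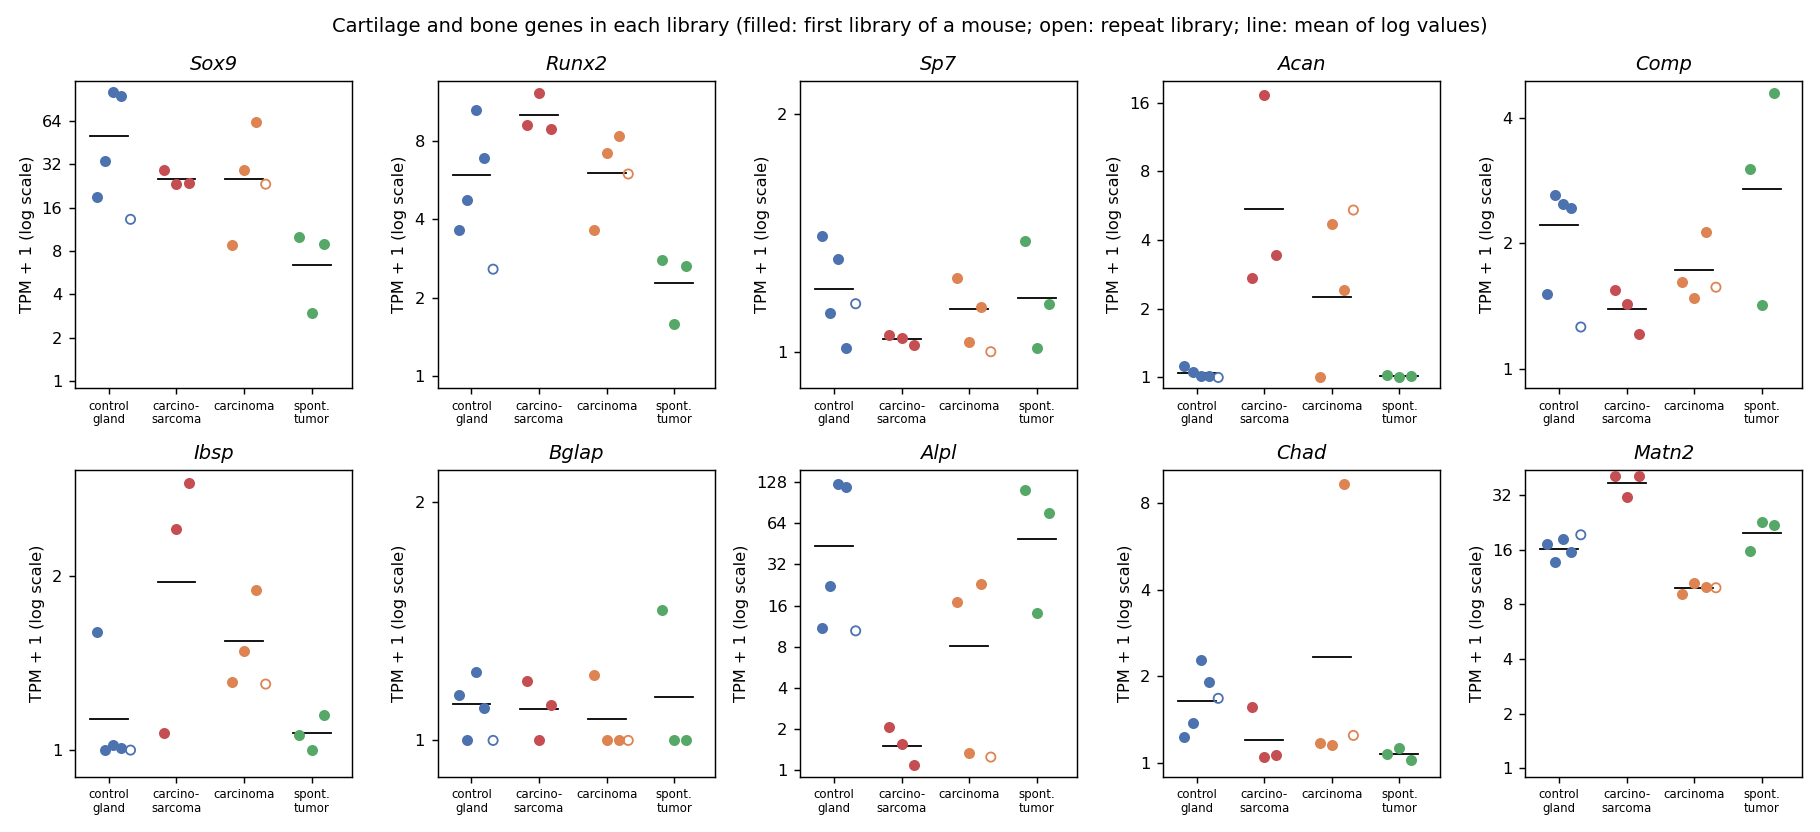
TPM + 1 on a log scale for each of the 10 genes, by group; filled points are first libraries, open points the repeat libraries of gland 133 and tumor 3956, and lines the mean of the log values. Matn2 separates the carcinosarcomas (30.1 to 40.0 TPM) from all other groups, whereas Alpl is lowest in the carcinosarcomas and in carcinoma 3956, and Sp7 and Bglap lie below 1 TPM throughout.

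Where they could be tested, the genes were counted beside all genes tested. In carcinosarcomas against glands, 6 of the 10 passed the filter and 3 were called, Matn2 and Acan higher and Alpl lower, where 23% of 15287 genes were called, 9.83% higher and 13.1% lower. Acan met the filter only through the carcinosarcomas and Alpl only through the glands, so of the 3 calls 1 (Matn2) was of a gene that either group alone would have kept. Groups that do not overlap were common in that comparison: 15.4% of genes were higher in every carcinosarcoma than in every gland, and 21.6% lower. Over all 6 Trim24COE tumors against the same glands, 1 of 6 was called (Alpl), where 17.1% of 15196 genes were called, 7.96% higher and 9.13% lower. Of those genes, 7.39% were higher in every Trim24COE tumor than in every gland, and 7.2% lower. Alpl met the filter there only through the glands as well. In carcinomas against glands, limma called 0 of 5, where 3.5% of 15479 genes were called (1.58% higher, 1.92% lower), and 1 (Matn2) had an unadjusted p under 0.05, as had 21.5% of genes. There 10.7% of genes were lower in every carcinoma than in every gland. Between the classes, 1 of 5 was called (Matn2), where 0.698% of 14193 genes were called (0.113% higher, 0.585% lower), and 7.33% were higher in every carcinosarcoma than in every carcinoma. In spontaneous tumors against glands, limma called 0 of 6, where 0.709% of 16775 genes were called, and 2 (Sox9 and Runx2) had an unadjusted p under 0.05, as had 19.3% of genes. There 23.9% of genes were lower in every spontaneous tumor than in every gland, and 7.62% higher. In carcinosarcomas against spontaneous tumors, 1 of 6 was called (Alpl), where 4.76% of genes were called (3.24% higher, 1.52% lower). In every carcinosarcoma 29.5% of genes were higher than in every spontaneous tumor, and 13% lower. The comparisons with glands share the same glands and are not independent of each other. Sp7, Chad, Ibsp and Bglap were below the filter in all comparisons, Acan in carcinomas against glands and Comp between the classes.

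The regulators were considered first. Sox9 (chromosome 11, 112782224 to 112787760, plus strand, GRCm38), the master factor of chondrocytes, was at 18.0, 32.6, 99.9 and 93.8 TPM in control glands 133, 392, 417_3 and 517_3. It was at 22.3, 28.1 and 22.7 TPM in carcinosarcomas 64, 567 and 897. In carcinomas 89, 273_5 and 3956 it was at 61.1, 7.74 and 28.0 TPM. The carcinosarcomas thus lay within the range of the glands, which itself spanned more than that of any tumor class. The mean was 24.4 ± 3.24 TPM (SD, n = 3) in carcinosarcomas and 61.1 ± 41.8 TPM (SD, n = 4) in glands. The fitted log2 difference was -0.98 (standard error 0.58, limma adjusted p = 0.260). With the mean of the adipocyte markers as a covariate, the difference was -2.37 (limma adjusted p = 0.00442), so whether Sox9 was called depended on this covariate. Adipocyte markers summed to 172 to 231 TPM in carcinosarcomas, 121 to 1276 TPM in carcinomas and 1763 to 38048 TPM in glands. Fits of Trim24COE tumors against glands with this covariate thus reach beyond values that tumors and glands share. Between carcinosarcomas and carcinomas the log2 difference was 0.01 (standard error 0.66, limma adjusted p = 0.995), and its sign changed when carcinosarcoma 567 (-0.09) or carcinoma 273_5 (-0.75) was left out. Spontaneous tumors 219, FVB001 and FVB002 were at 8.93, 1.97 and 7.87 TPM of Sox9. All 3 lay below every control gland, but the fitted log2 difference of -2.49 (standard error 0.72) did not pass the test (limma adjusted p = 0.118).

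Runx2 (chromosome 17, 44495987 to 44814797, minus strand), the factor that commits cells to the osteoblast line, was present in all groups at lower levels than Sox9. It was at 11.2, 8.22 and 7.90 TPM in carcinosarcomas 64, 567 and 897. In carcinomas 89, 273_5 and 3956 it was at 7.31, 2.62 and 6.15 TPM, so every carcinosarcoma lay above every carcinoma. Glands 133, 392, 417_3 and 517_3 were at 2.63, 3.73, 9.49 and 5.88 TPM and overlapped both classes. The log2 difference was 0.74 between carcinosarcomas and carcinomas (standard error 0.38, limma adjusted p = 0.409) and 0.76 between carcinosarcomas and glands (standard error 0.40, limma adjusted p = 0.207). Neither passed the test, and the second was -0.03 with the adipocyte covariate. In spontaneous tumors 219, FVB001 and FVB002 Runx2 was at 1.79, 0.59 and 1.64 TPM, below every other first library. In the same batch, the repeat library of gland 133 gave 1.57 TPM, below tumors 219 and FVB002. The repeat library of tumor 3956 gave 4.96 TPM. The carcinosarcomas differed from the spontaneous tumors by 1.75 on the log2 scale (standard error 0.47, limma adjusted p = 0.0520), just outside the threshold. Without gland 133, which ties the batches together, that adjusted p was 0.0363. Sp7 (chromosome 15, 102356606 to 102367182, minus strand), which acts after Runx2 in osteoblasts, was not expressed at a level that could be compared. Its highest value was 0.40 TPM, in gland 133, and the 3 carcinosarcomas had 0.04, 0.05 and 0.02 TPM.

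Among the cartilage matrix genes, Acan (chromosome 7, 79053483 to 79115099, plus strand), which encodes aggrecan, was found in 5 of the 6 Trim24COE tumors and in no gland or spontaneous tumor at 1 TPM or more. Carcinosarcomas 64, 567 and 897 were at 16.3, 1.73 and 2.45 TPM. Carcinomas 89, 273_5 and 3956 were at 1.41, 0.00 and 3.70 TPM, and the repeat library of tumor 3956 gave 4.42 TPM. In glands 133, 392, 417_3 and 517_3 the values were 0.12, 0.06, 0.01 and 0.01 TPM. All 3 carcinosarcomas lay above all 4 glands, and the log2 difference was 2.38 (standard error 0.59, a 5.21-fold change on the TPM + 1 scale, limma adjusted p = 0.0244). Acan met the filter on low values only through the carcinosarcomas, so a difference in this direction was set by the filter. With no filter the adjusted p was 0.0993, and with the adipocyte covariate 0.0686. Tumor 64 carried much of the size of the difference, which was 1.55 without it (limma adjusted p = 0.0233). Over all 6 Trim24COE tumors Acan differed from the glands by 1.74 on the log2 scale (standard error 0.61, limma adjusted p = 0.0706), and 2.10 without carcinoma 273_5, whose Acan was listed at 0 (limma adjusted p = 0.0202). There Acan met the filter only through the tumors, so the direction was again set by the filter. The classes were not told apart (log2 difference of carcinosarcomas from carcinomas 1.28, standard error 0.84, limma adjusted p = 0.505). Type II collagen (Col2a1), the main collagen of cartilage, was at 0.01, 0.92 and 0.45 TPM in carcinosarcomas 64, 567 and 897 and at 0.15, 9.72 and 0.16 TPM in carcinomas 89, 273_5 and 3956. It was at 0.02 to 0.11 TPM in glands and at 3.79, 0.31 and 2.78 TPM in spontaneous tumors 219, FVB001 and FVB002. Col2a1 and Col9a1 were singled out after their values were seen.

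Matn2 (chromosome 15, 34306677 to 34436273, plus strand) encodes matrilin 2, a filament-forming matrix protein of a family first known from cartilage that is also made in other connective tissues. It was the 1 gene of the 10 in which carcinosarcomas, carcinomas and glands did not overlap at all. Carcinosarcomas 64, 567 and 897 were at 30.1, 40.0 and 39.7 TPM. Carcinomas 89, 273_5 and 3956 were at 8.97, 8.18 and 9.55 TPM. Glands 133, 392, 417_3 and 517_3 lay between these classes, at 16.2, 12.7, 17.4 and 14.6 TPM, with no overlap in either direction. Tumor 3956 gave 8.89 TPM in its repeat library, and gland 133 gave 18.4 TPM. Matn2 was thus 2.32-fold higher in carcinosarcomas than in glands on the TPM + 1 scale (log2 difference 1.21, standard error 0.24, limma adjusted p = 0.0110). This call was lost without tumor 567 (limma adjusted p = 0.0505), where the difference was 1.14. Between the classes, Matn2 was 3.78-fold higher in carcinosarcomas than in carcinomas (log2 difference 1.92, standard error 0.24, limma adjusted p = 0.0224). The difference stayed between 1.85 and 2.05 when single tumors were left out, but the adjusted p passed the threshold only without carcinoma 3956 (0.0303) and ranged up to 0.143 without the others. The carcinomas lay below every gland, by 0.71 on the log2 scale (standard error 0.26, limma adjusted p = 0.170). Spontaneous tumors 219, FVB001 and FVB002 were at 14.7, 21.7 and 20.9 TPM. They overlapped the glands (log2 difference 0.24, limma adjusted p = 0.645). Every carcinosarcoma lay above them, but the difference did not pass the test (log2 difference 0.95, standard error 0.29, limma adjusted p = 0.0711).

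Comp (chromosome 8, 70373558 to 70382066, plus strand), cartilage oligomeric matrix protein, which binds collagen fibres, was low in all groups. Glands 133, 392, 417_3 and 517_3 were at 0.51, 1.61, 1.49 and 1.43 TPM. Carcinosarcomas 64, 567 and 897 were at 0.43, 0.55 and 0.21 TPM. Carcinomas 89, 273_5 and 3956 were at 1.13, 0.62 and 0.48 TPM. The carcinosarcomas lay below 3 of the glands and overlapped gland 133. Against the glands the fit gave -0.67 on the log2 scale (standard error 0.27, limma adjusted p = 0.112), and -0.85 without gland 133 (limma adjusted p = 0.0366). Comp met the filter only through the glands, so the lower direction was set by the filter. The highest level was 3.59 TPM in spontaneous tumor FVB002. Chad (chromosome 11, 94565047 to 94569127, plus strand), chondroadherin, a small leucine-rich protein to which chondrocytes attach, reached 8.32 TPM in carcinoma 89. In the other 5 Trim24COE tumors it lay between 0.05 and 0.57 TPM, and in the glands between 0.23 and 1.28 TPM. Chad failed the filter in each comparison and was not tested.

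**Figure D2:**
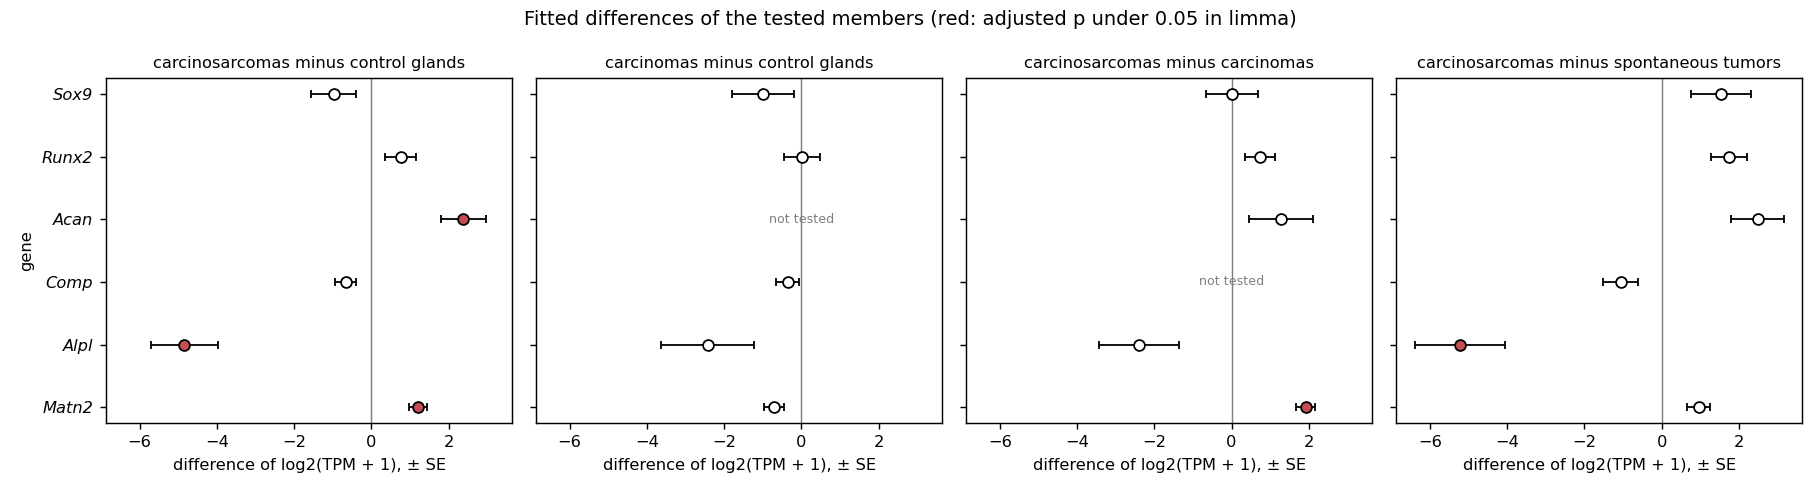
Fitted differences of log2(TPM + 1) with standard errors for the 6 genes that passed the filter in some comparison, 1 panel per comparison; red points passed an adjusted p of 0.05 in limma. Matn2 lies above 0 in both comparisons of carcinosarcomas with batch 1 samples (1.21 and 1.92), and Alpl lies below 0 in the 3 panels of carcinosarcomas.

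Of the 3 bone matrix and mineralization genes among the 10, Alpl (chromosome 4, 137741733 to 137796384, minus strand) was the 1 that could be tested. It encodes tissue-nonspecific alkaline phosphatase, which splits pyrophosphate at sites of mineral and is made in several tissues beside bone. Glands 133, 392, 417_3 and 517_3 were at 10.04, 21.3, 123 and 116 TPM. Carcinosarcomas 64, 567 and 897 were at 0.55, 1.07 and 0.09 TPM, all below the lowest gland. Carcinomas 89 and 273_5 were at 22.0 and 16.0 TPM, whereas carcinoma 3956 was at 0.33 TPM (0.25 TPM in its repeat library). That carcinoma lay within the range of the carcinosarcomas. Alpl was 28.6-fold lower in carcinosarcomas than in glands on the TPM + 1 scale (log2 difference -4.84, standard error 0.86, limma adjusted p = 0.00748), and passed the test in each of the 7 fits without 1 mouse. Alpl met the filter only through the glands, since 1 of the 3 carcinosarcomas reached 1 TPM. With no filter the adjusted p was 0.0326. Over all 6 Trim24COE tumors the log2 difference was -3.64 (standard error 1.04, limma adjusted p = 0.0352). Here too Alpl met the filter only through the glands, since 3 of the 6 tumors reached 1 TPM. The call was lost with no filter. That call held in 3 of 10 fits without 1 mouse and was lost, with adjusted p between 0.0530 and 0.0990, without carcinosarcoma 64, 567 or 897, carcinoma 3956, or gland 392, 417_3 or 517_3. Carcinomas alone did not pass the test against glands (log2 difference -2.43, standard error 1.20, limma adjusted p = 0.296). The class difference was -2.41 (standard error 1.04, limma adjusted p = 0.338), and -3.71 without carcinoma 3956 (limma adjusted p = 0.0189). The study's own list of genes that differ between these classes holds Alpl as higher in the non-metaplastic tumors. Its methods name DESeq2 for differential expression and not the limma fit used here, so these results are not like for like.

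The spontaneous tumors lay within the range of the glands for Alpl, at 111, 13.2 and 74.7 TPM in mice 219, FVB001 and FVB002. Carcinosarcomas were lower than these tumors (log2 difference -5.22, standard error 1.17, limma adjusted p = 0.0284). This comparison spans batches and was lost without carcinosarcoma 64, 567 or 897 or spontaneous tumor 219 or FVB002, with adjusted p between 0.0608 and 0.105. Spontaneous tumors and glands did not pass the test (log2 difference 0.38, standard error 1.09, limma adjusted p = 0.883). Epithelial markers were also lower in carcinosarcomas. The 8 epithelial markers summed to between 365 and 1424 TPM in carcinosarcomas, 2417 and 5884 TPM in carcinomas, 804 and 6273 TPM in glands, and 552 and 5789 TPM in spontaneous tumors. In carcinosarcomas against glands, 4 of the 8 were lower and 0 higher, and Krt5 was down to 0.22 TPM in a carcinosarcoma. No epithelial marker was at 0 in a whole group. In carcinoma 3956, where Alpl was at 0.33 TPM, they summed to 5824 TPM, within the range of the glands. The single markers were uneven there. Krt19 was at 28.1 TPM in that tumor, beside 28.9 to 53.8 TPM in carcinosarcomas and 117 to 856 TPM in glands. Cdh1 was at 84.8 to 124 TPM in the carcinomas, within the 36.9 to 196 TPM of the glands. The part of epithelial content in the Alpl result was not tested. Across the 10 batch 1 mice, the gene most like Alpl among 14010 genes was Krt19, a keratin of simple and luminal epithelium and 1 of those markers (Pearson r = 0.99 of log2(TPM + 1), n = 10), followed by Alox12e and Nat8 (both r = 0.99). These points share the contrast of tumor and gland.

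Ibsp (chromosome 5, 104299171 to 104311469, plus strand), bone sialoprotein, which seeds mineral, was low in all groups. Carcinosarcomas 64, 567 and 897 were at 1.41, 0.07 and 1.89 TPM. Carcinomas 89, 273_5 and 3956 were at 0.89, 0.31 and 0.48 TPM. Glands 392, 417_3 and 517_3 were at 0.00, 0.02 and 0.01 TPM, and gland 133 at 0.60 TPM. The repeat library of gland 133 listed Ibsp at 0, so the level in that gland differed between its 2 libraries. Of the 6 Trim24COE tumors, 3 lay above every gland. Spontaneous tumors 219, FVB001 and FVB002 were at 0.06, 0.00 and 0.15 TPM, within the range of the glands. Ibsp reached 1 TPM in 2 mice and was not tested.

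Bglap (chromosome 3, 88383501 to 88384464, minus strand), osteocalcin, the late marker of osteoblasts, was at most 0.46 TPM, in spontaneous tumor 219. In glands it lay between 0.00 and 0.22 TPM and in Trim24COE tumors between 0.00 and 0.21 TPM. Bglap2 and Bglap3 are near copies of Bglap on the same strand of chromosome 3, so reads could be split among them, and their values are uncertain in that respect. Bglap2 lay between 0.00 and 2.29 TPM in the first libraries. Bglap3 (88368616 to 88372743) was the expressed member of the cluster, at 46.9, 55.2, 153 and 121 TPM in glands 133, 392, 417_3 and 517_3. In carcinosarcomas 64, 567 and 897 it was at 0.20, 0.84 and 0.50 TPM, and in carcinomas 89, 273_5 and 3956 at 15.1, 0.85 and 0.85 TPM. Every tumor lay below every gland. The log2 difference was -5.82 for carcinosarcomas (standard error 0.46, limma adjusted p = 0.000641) and -4.47 for carcinomas (standard error 0.82, limma adjusted p = 0.0297), both against the same 4 glands. Bglap3 met the filter only through the glands, so the lower direction was set by the filter. The spontaneous tumors had 33.0, 2.51 and 18.3 TPM of Bglap3.

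**Figure D3:**
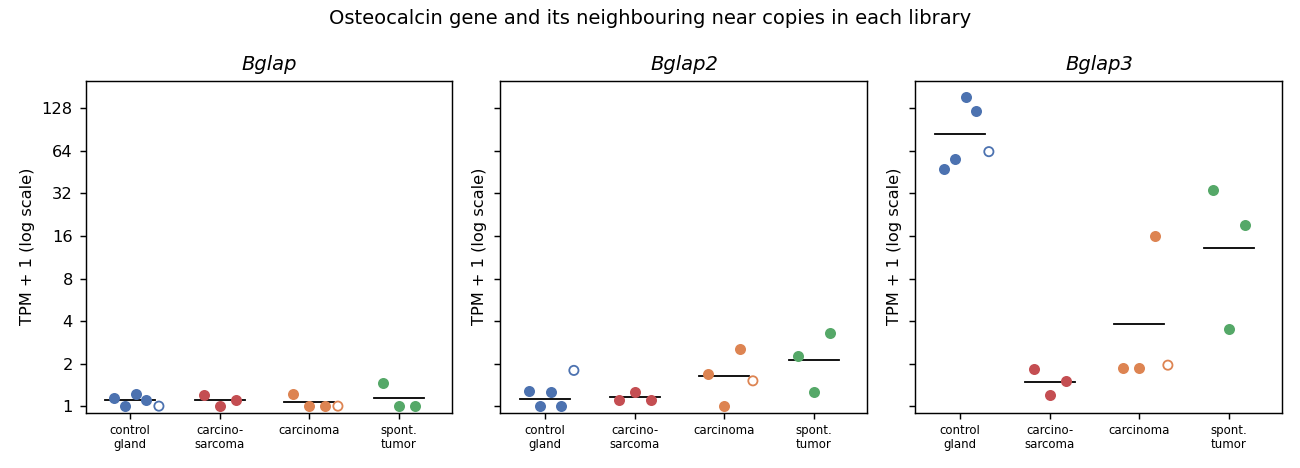
TPM + 1 on a log scale for Bglap and its near copies Bglap2 and Bglap3, by group; filled points are first libraries, open points repeat libraries, and lines the mean of the log values. Bglap stays at or below 0.46 TPM, whereas Bglap3 is between 46.9 and 153 TPM in the 4 glands and at or below 0.84 TPM in the 3 carcinosarcomas.

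Start-site sequences are given for Bglap, for its near copy Bglap3, and for Alpl. Promoter windows of 300 bases, from 250 bases before to 50 from the start, were available from RefSeq (GRCm38.p6) for 6 of the 10 genes: Runx2, Acan, Chad, Ibsp, Bglap and Alpl. They were searched on both strands for the RUNX core TGTGGT, which reads ACCACA on the other strand, and for the SOX core ACAAAG. The motifs do not overlap each other in letters. Of 32851 windows, 16.8% hold the RUNX core and 18.7% the SOX core. The window of Bglap (chr3:88384417-88384716, minus strand) holds 1 RUNX core, 132 bases before the start. The first of 3 windows of Bglap3 (chr3:88372692-88372991, minus strand) holds neither core, and shares 27.3% of its bases with that of Bglap when they are laid side by side without gaps. Windows 2 and 3 of Bglap3 share 27.0% and 31.3%. These shares were not set beside those of unrelated sequences, so they do not measure how alike the promoters are. The upstream window of Alpl (chr4:137796335-137796634, minus strand) holds 1 SOX core, 215 bases before the start. Each is written 5′ to 3′, with the matching letters in capitals.
Bglap: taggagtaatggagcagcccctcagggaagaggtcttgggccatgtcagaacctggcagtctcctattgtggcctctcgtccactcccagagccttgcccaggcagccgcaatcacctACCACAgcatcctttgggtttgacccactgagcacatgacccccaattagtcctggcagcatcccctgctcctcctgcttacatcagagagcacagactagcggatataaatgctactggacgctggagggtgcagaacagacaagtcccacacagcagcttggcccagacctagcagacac
Bglap3: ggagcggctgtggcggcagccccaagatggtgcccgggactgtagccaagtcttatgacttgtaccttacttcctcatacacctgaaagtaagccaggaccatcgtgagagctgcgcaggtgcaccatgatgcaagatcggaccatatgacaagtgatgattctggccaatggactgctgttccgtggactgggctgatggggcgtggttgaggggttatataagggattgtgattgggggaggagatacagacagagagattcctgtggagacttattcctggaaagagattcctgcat
Alpl: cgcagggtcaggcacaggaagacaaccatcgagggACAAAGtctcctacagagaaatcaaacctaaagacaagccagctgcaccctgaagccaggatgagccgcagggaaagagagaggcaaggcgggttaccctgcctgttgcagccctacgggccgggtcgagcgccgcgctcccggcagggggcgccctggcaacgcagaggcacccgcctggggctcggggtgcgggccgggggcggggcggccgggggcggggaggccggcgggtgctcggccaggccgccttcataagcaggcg
The second Alpl window holds 2 SOX cores, and the Runx2 window holds 3 RUNX cores. The windows of Ibsp, Acan and Chad hold neither. These matches are letters in a window and were not tested for binding.

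Genes of the same pathways were counted in 4 lists, in carcinosarcomas against glands, where 23% of all genes tested were called, 9.83% higher and 13.1% lower. Of the 19 list genes named here, 9 met the filter only through the group in which they were high: Col9a2, Matn4, Barx2, Fgfr3, Sox5, Sox6, Msx2 and Bglap3 through the glands, and Pthlh through the carcinosarcomas. Their direction was set by the filter, so the counts of the lists are given as descriptions. Among 22 cartilage matrix genes, 14 were tested, 1 rose and 4 fell. The median log2 difference of those tested was -1.34, beside -0.12 over all genes tested. The cartilage collagen chains Col9a2 and Col9a3, which sit on type II collagen fibrils, fell by 4.79 and 3.68 on the log2 scale (limma adjusted p = 0.00938 and 0.00611). Col9a2 was at 12.9 to 151 TPM in glands and 0.28 to 3.57 TPM in carcinosarcomas. Prelp, a leucine-rich matrix protein, fell by 4.51 (limma adjusted p = 0.00115), and Matn4, another matrilin, by 1.45 (limma adjusted p = 0.0379). Vcan, a large proteoglycan of loose connective tissue, rose by 3.69 (limma adjusted p = 0.00417), from 1.47 to 6.44 TPM in glands to 29.9 to 108 TPM in carcinosarcomas. Carcinomas had 18.1 to 106 TPM of Vcan. Spontaneous tumors 219, FVB001 and FVB002 had 38.6, 3.78 and 27.6 TPM. In carcinomas the type IX chains were uneven. Col9a1 was at 33.1 and 161 TPM in carcinomas 89 and 273_5, and at 0.76 TPM in carcinoma 3956, beside 1.12 to 16.1 TPM in glands.

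Of 16 chondrocyte regulators and signals, 13 were tested, 1 rose and 4 fell, with a median of -0.68. Sox5 and Sox6, the partners of SOX9 on cartilage genes, fell by 1.12 and 1.40 (limma adjusted p = 0.0209 and 0.0425), and Barx2 had a log2 difference of -4.69 (limma adjusted p = 0.00155) and the receptor gene Fgfr3 of -2.12 (limma adjusted p = 0.0253). Barx2 was at 17.6 to 74.1 TPM in glands and 0.34 to 1.13 TPM in carcinosarcomas. It was also below every gland in carcinomas (0.48 to 9.18 TPM) and spontaneous tumors (0.54 to 2.22 TPM). Pthlh, the hormone-related peptide that slows chondrocyte maturation, rose by 2.77 (limma adjusted p = 0.00341), from 0.74 to 3.26 TPM in glands to 15.6 to 21.4 TPM in carcinosarcomas. Carcinomas had 24.6 to 57.6 TPM, above every carcinosarcoma, but the class difference of -1.12 did not pass the test (limma adjusted p = 0.233).

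Of 20 osteoblast regulators and signals, 17 were tested, 3 rose and 1 fell, with a median of -0.05. Cbfb, the partner that RUNX proteins need to bind DNA, rose by 1.63 (limma adjusted p = 0.0231), from 20.4 to 57.9 TPM in glands to 87.4 to 124 TPM in carcinosarcomas. Twist1, a mesenchymal factor that restrains RUNX2, rose by 2.24 (limma adjusted p = 0.0450), and Bmp2, an inducer of bone, by 1.03 (limma adjusted p = 0.0281). Msx2 fell by 1.97 (limma adjusted p = 0.00331), from 3.31 to 6.11 TPM in glands to 0.09 to 0.52 TPM in carcinosarcomas. Carcinomas had 0.13 to 0.52 TPM of Msx2 and spontaneous tumors 0.03 to 0.25 TPM, all below every gland.

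The list of 24 bone matrix and mineralization genes had 19 tested, of which 7 rose and 1 fell, with a median of 1.36. Spp1, osteopontin, rose by 5.47 (limma adjusted p = 0.00115), from 15.6 to 94.9 TPM in glands to 1370 to 2349 TPM in carcinosarcomas. Carcinomas had 2170 to 3130 TPM. Spontaneous tumors 219, FVB001 and FVB002 had 5980, 357 and 3011 TPM, also above every gland. Osteopontin is also made by macrophages. The type I collagen chains Col1a1 and Col1a2, made by fibroblasts as well as osteoblasts, rose by 3.79 and 4.46 (limma adjusted p = 0.00374 and 0.00370). Cthrc1, a secreted protein of collagen-making cells, rose by 4.59 (limma adjusted p = 0.000828) and was the only gene of the 4 lists called between the classes (log2 difference 2.49, standard error 0.39, limma adjusted p = 0.0496). It was at 152 to 184 TPM in carcinosarcomas, 18.2 to 52.6 TPM in carcinomas and 3.28 to 10.8 TPM in glands. The 1 gene that fell was Bglap3.

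**Figure D4:**
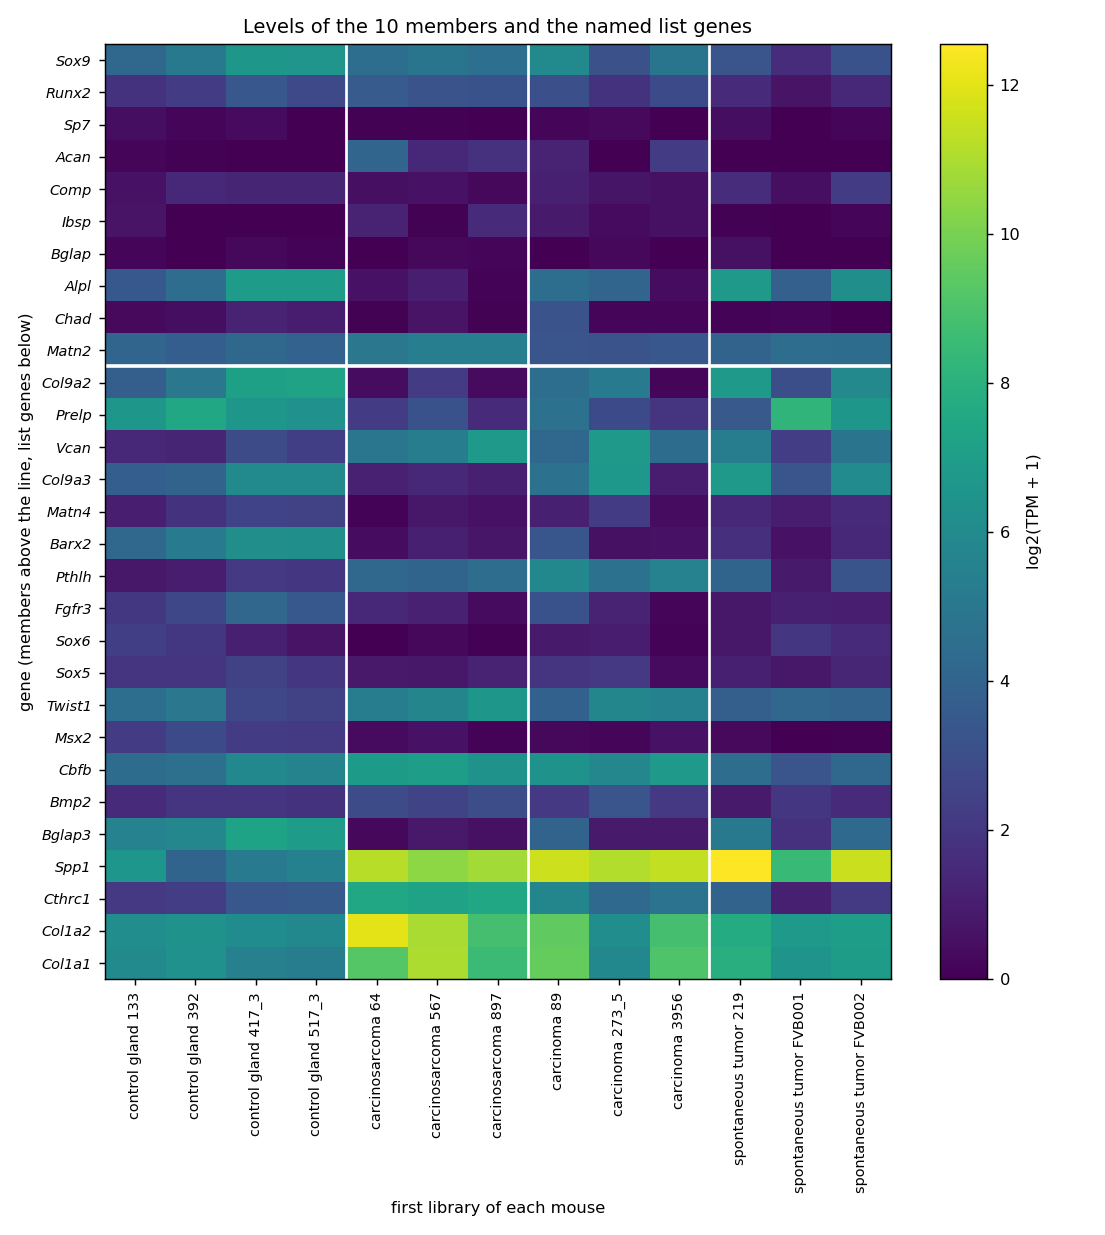
Log2(TPM + 1) as colour for the 10 genes (above the white line) and the list genes named by rule (below it), with 1 column per first library of each mouse, ordered by group. Spp1 is bright in all Trim24COE tumors (1370 TPM or more) and in spontaneous tumors 219 and FVB002 (5980 and 3011 TPM). Cthrc1 is brightest in the 3 carcinosarcomas (152 to 184 TPM). Col9a2, Barx2 and Bglap3 are bright in the glands and dark in the carcinosarcomas. Barx2 and Bglap3 also lie below every gland in all other tumors.

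Markers of other cell types were read in the same comparison. Fibroblast markers summed to between 1238 and 3998 TPM in carcinosarcomas, 178 and 1562 TPM in carcinomas, and 536 and 1843 TPM in glands. The sums overlapped, and of the 8 markers 1 was called higher and 1 lower in carcinosarcomas against glands. Macrophage markers summed to between 2275 and 5194 TPM in carcinosarcomas, 1297 and 5261 TPM in carcinomas, and 597 and 874 TPM in glands, with 3 of 5 called higher in carcinosarcomas against glands. Neutrophil markers summed to between 212 and 280 TPM in carcinosarcomas and 5.9 and 12.3 TPM in glands, with 4 of 4 tested called higher. Schwann cell markers summed to between 37.8 and 102.5 TPM in carcinosarcomas and 140 and 317 TPM in glands, with 4 of 6 called lower. Milk-producing alveolar markers summed to between 25.2 and 339 TPM in carcinosarcomas and 521 and 7027 TPM in glands, with 2 of 5 called lower. Adipocyte markers had 2 of 8 called lower, and endothelial markers 1 of 5. Osteoclast markers, which macrophages share in part, summed to between 486 and 1801 TPM in carcinosarcomas, 196 and 609 TPM in carcinomas, and 89.6 and 334 TPM in glands. Of these 9 markers, 7 were tested and 4 were called higher in carcinosarcomas against glands, among them Ctsk, the bone-resorbing protease cathepsin K (224 to 551 TPM against 12.7 to 51.3 TPM). Calcr, the calcitonin receptor that defines mature osteoclasts, was at most 0.48 TPM. The part of these cell types in the results above was not tested.

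Over the 10 batch 1 mice, Pearson correlations of log2(TPM + 1) among the 6 genes with enough signal ranged from -0.77 (Acan with Alpl) to 0.87 (Comp with Alpl). Sox9 and Acan had r = -0.19 and Runx2 and Acan r = 0.63 (n = 10 each). By the same measure, the genes most like Sox9 were Pim1, Nfkbid and Snhg5 (r = 0.96, 0.96 and 0.95), and those most like Runx2 were Metap1, Pik3ca and Tbc1d8b (r = 0.94, 0.94 and 0.93). Acan was nearest to Sez6l2, Slco4a1 and Plekhg4 (r = 0.96, 0.96 and 0.95) and Comp to Ehd3, Ido1 and Igkv4-74 (r = 0.97, 0.96 and 0.95). Matn2 was nearest to Traf5, Zc4h2 and Mthfs (r = 0.96, 0.96 and 0.95). These are descriptions over mice that share tumor class, and none of the nearest genes is among the 10. Repeat libraries set the technical scale. For tumor 3956 the 10 genes differed between libraries by -0.32 to 0.21 on the log2(TPM + 1) scale, and for gland 133 by -0.68 (Ibsp) to 0.45 (Chad).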

How the data were processed

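Total RNA of mouse mammary tumors and glands was sequenced on a stranded kit, and the authors deposited TPM values per gene in 2 tables, 1 per sequencing batch. Per the study's methods, reads were aligned with STAR to GRCm38 and quantified by RSEM with GENCODE annotation; the submitters' processing notes also name FastQC, TopHat, Cufflinks, DESeq, edgeR and mm10, with no role given. Values were used as deposited. TPM keeps no depth, so depth per sample is unknown and no counting interval can be given.

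Groups came from the sample labels. limma 3.58.1 (R 4.3.3; lmFit, eBayes with trend) was fitted to log2(TPM + 1), using genes that reached 1 TPM in a number of libraries equal to the size of the smaller group, with Benjamini-Hochberg adjustment over all genes tested and a threshold of 0.05. For batch 1, each fit held 1 library per mouse and no group beyond those compared. Those with spontaneous tumors used all 15 libraries, a batch term and the mouse as a random block (estimated correlation 0.951); the 2 mice sequenced in both batches tie the batches together. The fitting code was tested on simulated data. The 10 genes and all gene lists were chosen with earlier results of these data known. Named list genes are the 5 largest changes by absolute log2 value among the called genes of each list in carcinosarcomas against glands, plus list genes called between the classes. Alternatives were another added TPM, no filter, median-of-ratios scaling, other uses of the repeat libraries, 1 fit for all batch 1 mice, no batch term, an adipocyte covariate and leaving out single mice. Tables were prepared with Python 3.11.15 and pandas 2.3.3, and drawn with matplotlib 3.10.9.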

Additional observations from a re-analysis of the deposited data

Results flagged for a closer look

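Single mice stood apart in 4 of the 20 sets of 4 or 6 mice examined by the gap to the nearest value over the range (Dixon's test). For normally spread values chance gives about 1 in 20. TPM was used here without logs, so that rate may not hold and the flags depend on the scale. Acan in carcinosarcoma 64 was at 16.29 TPM, and the next of the 6 Trim24COE tumors at 3.7 TPM (gap over range 0.773). Chad in carcinoma 89 was at 8.32 TPM, and the next tumor at 0.57 TPM (gap over range 0.937). Both values from control gland 133 were low-level: Comp was at 0.51 TPM, with the next gland at 1.43 TPM (gap over range 0.836), and Ibsp at 0.6 TPM, with the next gland at 0.02 TPM (gap over range 0.967). The repeat library of gland 133 gave 0.26 TPM of Comp and listed Ibsp at 0.

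Between tumor groups, 2 genes were called. The change of Matn2 against glands was larger in carcinosarcomas than in carcinomas, by 1.92 on the log2 scale (limma adjusted p = 0.0224). That call held in 1 of 6 fits without 1 mouse. The change of Alpl differed between carcinosarcomas and spontaneous tumors by -5.22 (limma adjusted p = 0.0284), across batches. The Alpl call held in 3 of 8 such fits.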

How the results depend on the processing

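The 6 called differences kept their direction in 83 of 83 alternative values and their call in 58. The count of called genes over all Trim24COE tumors against glands, 1 in the report, was 2 with 0.1 TPM added or with all 10 mice in 1 fit, 0 without the filter or with the adipocyte covariate, and 0 to 2 without single mice. Between the classes it was 1, 0 without the filter, and 0 to 2 without single mice. In carcinosarcomas against spontaneous tumors it was 1, 0 without the filter or with libraries of a mouse treated as separate, 2 with median-of-ratios scaling, 4 without the batch term, and 0 to 3 without single mice. With the adipocyte covariate, Runx2 changed sign in Trim24COE tumors (-0.28), carcinosarcomas (-0.030) and carcinomas (-0.42) against glands, and Matn2 in Trim24COE tumors (-0.20). Acan in spontaneous tumors against glands became 0.077 with 0.1 TPM added. Signs also changed without single mice, for Runx2 in carcinomas against glands (-0.22 to 0.38), Sox9 between the classes (-0.75 to 0.67), and Alpl (-0.26 to 1.29) and Acan (-0.28 to 0.10) in spontaneous tumors against glands. None of these was called. The cause was not tested. Over all genes, the count of calls ran from 1255 to 3104 (2597 in the report) for Trim24COE tumors against glands, 1345 to 4999 (3511) for carcinosarcomas, 46 to 1170 (542) for carcinomas, 0 to 293 (99) between the classes, 7 to 476 (119) for spontaneous tumors and 13 to 1628 (799) for carcinosarcomas against spontaneous tumors. No paired analysis was possible because the labels give the groups no shared replicate numbers. Depth is unknown, so values below 1 TPM carry no stated precision.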
